A study of Mus musculus with 36 samples.

Results

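The 2 transduced lines of the mouse pre-B cell line B3 were compared at 0 h, before Ikaros was induced, to find the miRNAs and miRNA clusters that already differed between them. The comparison used the 6 samples that the labels give as 0 h, 3 of each line, out of 36 samples in the series. Both lines are B3 cells, a pre-B lymphocyte line, transduced with a mouse stem cell virus (MSCV) vector and sorted for GFP. The Ikaros line carries HA-Ikaros-ERt2-IRES-GFP, in which haemagglutinin-tagged wild type Ikaros is joined to the domain of the estrogen receptor that binds the hormone, and the control line carries the same vector with ERt2 and GFP but no Ikaros. The amount of the fusion protein in the nucleus is controlled with 4-hydroxy-tamoxifen (4-OHT). Whether some of it was in the nucleus or active without 4-OHT is not known from these data. The labels list 4-OHT at 0.5 uM for every sample, also for those of 0 h. According to the methods the cells of 0 h had received none, and they are taken here as cells without induction. Samples numbered 1, 2 and 4 of each line came from culture batches 4, 5 and 6, so that same-numbered samples of the lines shared a culture batch. Each line is 1 transduced population, so an effect of the fusion protein before induction and an effect of the transduction, the sort or the growth of a population cannot be told apart. Ikaros is encoded by an mRNA and has no value in a table of miRNAs, so it could not be used to check the labels.

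MiRNAs are short RNAs that guide Argonaute proteins to mRNAs, mostly through the seed, bases 2 to 8 from the 5′ end. A hairpin gives a 5p and a 3p arm, one of which is usually more abundant, and neighbouring hairpins are often cut from 1 long transcript, so that miRNAs of a genomic cluster tend to be made together. Ikaros (Ikzf1) is a zinc finger protein that drives pre-B cells out of the cycle and towards the next stage. In B-lineage cells the miR-17-92 cluster, miR-181, miR-150, miR-155 and miR-146a are among the best studied miRNAs, whereas miR-200, the miRNAs of the imprinted Dlk1-Dio3 region and the miRNAs within Clcn5 are better known from epithelial, embryonic and other tissues.

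Sequences of miRNAs on which the results turn are given first, members of the 4 groups in which most differences lay and single miRNAs beside them. Sequences are from RefSeq (GRCm38.p6), are written 5′ to 3′, and have the seed in capitals. The first set shows miRNAs that were higher in the Ikaros line, the miR-10 pair with its shared seed, members of the Clcn5 cluster, in which miR-500-3p and miR-501-3p also share one, and miR-126a-3p and miR-146a-5p from elsewhere.
miR-10a-5p: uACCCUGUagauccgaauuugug
miR-10b-5p: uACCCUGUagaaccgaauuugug
miR-500-3p: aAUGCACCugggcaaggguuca
miR-501-3p: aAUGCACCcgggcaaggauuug
miR-501-5p: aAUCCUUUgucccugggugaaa
miR-188-5p: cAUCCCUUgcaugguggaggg
miR-188-3p: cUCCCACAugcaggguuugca
miR-532-3p: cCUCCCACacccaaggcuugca
miR-362-3p: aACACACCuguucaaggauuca
miR-126a-3p: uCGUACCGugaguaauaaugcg
miR-146a-5p: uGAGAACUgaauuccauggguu

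The second set shows miRNAs that were lower, among them miR-200b-3p and miR-429-3p with 1 seed, and beside them miR-200c-3p, which has that seed and did not differ past the threshold.
miR-127-3p: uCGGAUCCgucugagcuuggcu
miR-541-5p: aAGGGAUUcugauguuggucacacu
miR-411-5p: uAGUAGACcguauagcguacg
miR-410-3p: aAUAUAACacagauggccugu
miR-200b-3p: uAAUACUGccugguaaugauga
miR-429-3p: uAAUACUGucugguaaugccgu
miR-200c-3p: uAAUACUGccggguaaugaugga
miR-20b-5p: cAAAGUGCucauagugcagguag
miR-363-3p: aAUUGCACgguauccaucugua
miR-21a-5p: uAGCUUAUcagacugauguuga
miR-221-3p: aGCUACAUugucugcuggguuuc

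At 0 h, 21 of the 469 miRNAs were higher in the Ikaros line (4.48%) and 19 were lower (4.05%), so that 40 (8.53%) passed limma with a Benjamini-Hochberg adjusted p-value under 0.05. Levels and differences are given on the log2 scale of the deposited table, and a difference is always the Ikaros line minus the control line, with its standard error (SE) from the fit of all 36 samples. Of the 40 miRNAs, 30 differed by at least 1, 20 of them higher and 10 lower. All 40 had values in the 3 Ikaros samples that did not overlap with those of the 3 control samples and differed in the same direction in each of the 3 same-numbered pairs. Such a lack of overlap was seen in 123 of the 469 miRNAs (26.2%), and 75 (16%) had an unadjusted p-value under 0.05. The median difference of all 469 was -0.03. After subtraction of the sample medians, the split was 27 higher and 16 lower. Without the control sample numbered 2, 12 were lower.

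**Figure D1:**
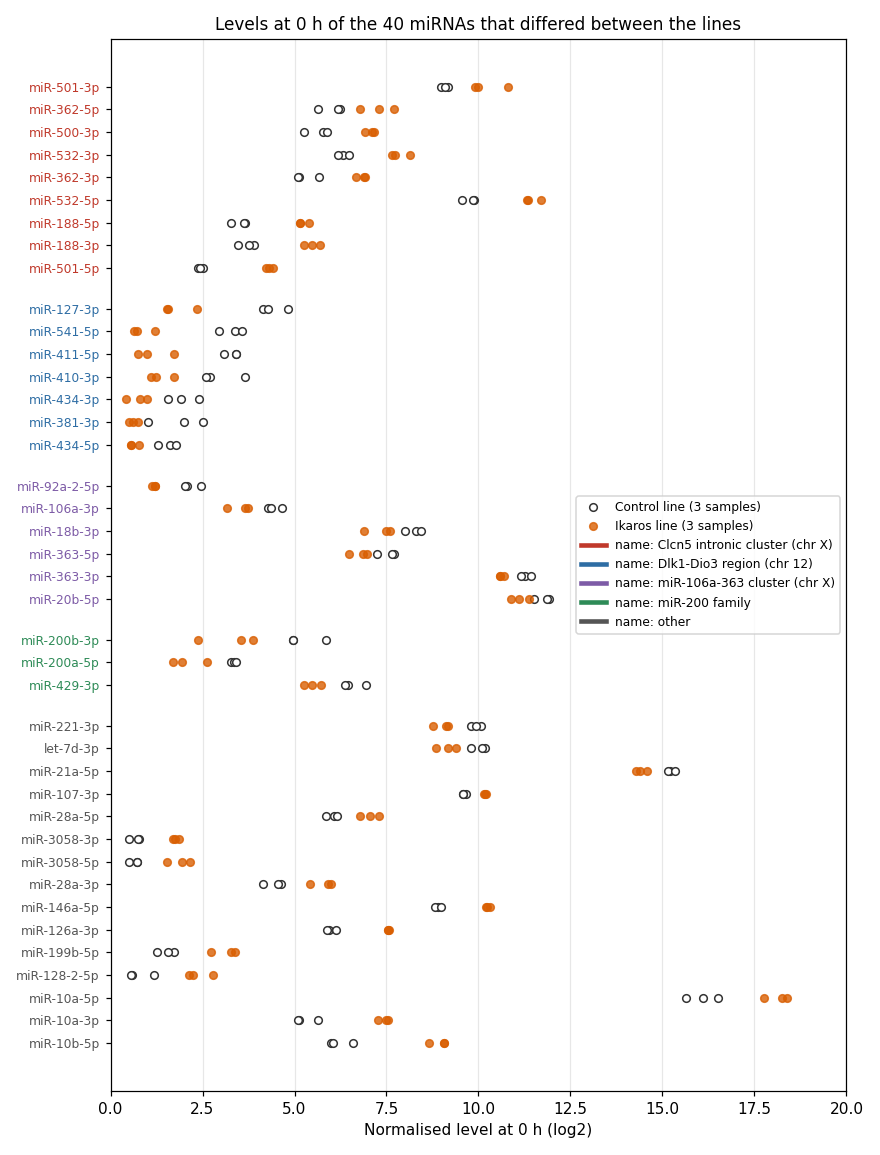
Normalised levels (x axis, log2) of the 40 miRNAs that passed the threshold at 0 h, one row each, in the 3 control samples (open points) and the 3 Ikaros samples (filled points), with names coloured by group. In every row the points of the lines are apart, and the shifts go to the right for the Clcn5 cluster and to the left for the Dlk1-Dio3 region, the miR-106a-363 cluster and the miR-200 family.

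Across the 469 miRNAs, samples of the same line correlated with each other at r between 0.990 and 0.995 and samples of different lines at r between 0.979 and 0.988. The median level of the 6 samples lay between 3.86 and 4.12, the lowest value of a sample between 0.36 and 0.69, and on the linear scale the first 10 miRNAs of a sample by level made up 77.5% to 81.3% of it. Of the 100 most abundant miRNAs, 11 passed the threshold, against 29 of the other 369. At the low end, 12 of the 40 had a mean under 2 in one of the lines, 4 of them higher and 8 lower in the Ikaros line, so their folds compare a value with one near the bottom of the table. Bulk RNA cannot tell fewer cells with a miRNA from less of it per cell. The median GC content was 47.8% in the higher and 47.7% in the lower miRNAs with a sequence, against 50% in all 391 with one.

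**Figure D2:**
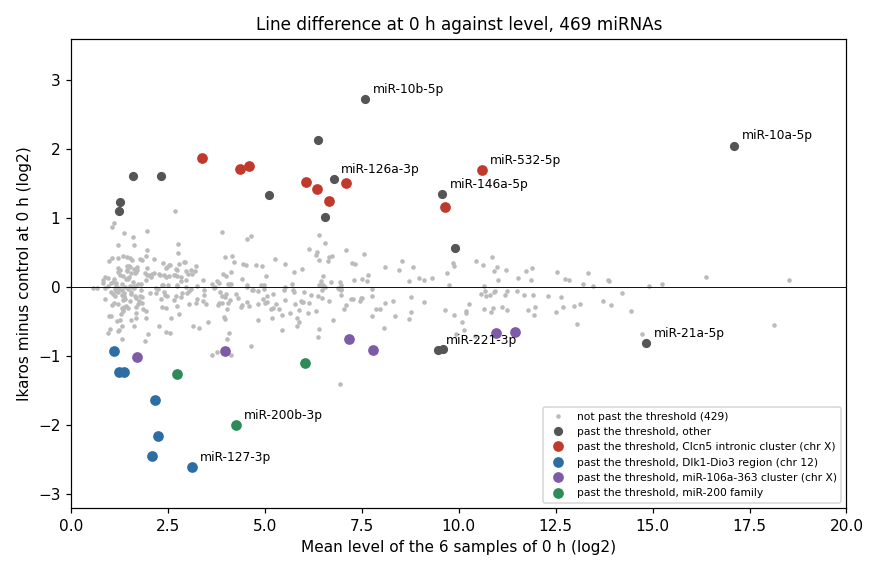
Line difference at 0 h (y axis, log2, Ikaros minus control) against the mean level of the 6 samples (x axis, log2) for 469 miRNAs, with the 40 past the threshold enlarged and coloured by group and the others in grey. The Clcn5 cluster lies above 0 from a level of about 3 upward, the Dlk1-Dio3 miRNAs lie below 0 at levels under 4, and miR-10a-5p is the one past the threshold at the highest level, 17.11.

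The Clcn5 cluster, 5 hairpins on the minus strand within an intron of the chloride channel gene Clcn5 (GRCm38 chrX:7237683-7248497), was the group with the largest number of higher miRNAs. Of its 10 measured mature miRNAs, 9 were higher in the Ikaros line, and the median difference of the 10 was 1.52. The most abundant of them, miR-532-5p, had levels of 9.54, 9.88 and 9.86 in control samples 1, 2 and 4 and of 11.36, 11.31 and 11.70 in the Ikaros samples. The lowest Ikaros sample was 1.43 above the highest control sample, with a difference of 1.70 (SE 0.23, limma, adjusted p = 5.78e-06). miR-501-5p had the largest difference of the cluster, from 2.51, 2.39 and 2.44 to 4.42, 4.22 and 4.30, which is 1.87 (SE 0.34, limma, adjusted p = 3.04e-04) or 3.65-fold. For this miRNA the samples spread over 0.12 in the control line and over 0.20 in the Ikaros line. The differences were 1.75 for miR-188-3p, 1.71 for miR-188-5p, 1.53 for miR-362-3p, 1.51 for miR-532-3p, 1.42 for miR-500-3p, 1.25 for miR-362-5p and 1.16 for miR-501-3p. The remaining member, miR-500-5p, had a difference of 1.10 with a 95% confidence interval of 0.12 to 2.09 and did not pass (limma, adjusted p = 0.221). Its control values ran from 1.36 to 2.68 and its Ikaros values from 3.10 to 3.29, so the spread lay in the control line. Together the 10 held between 0.114% and 0.136% of the linear total in control samples and between 0.287% and 0.364% in Ikaros samples. Both arms of miR-188, miR-362, miR-501 and miR-532 passed. The weakest calls depended on single libraries: miR-362-5p did not pass without control sample 1, 2 or 4 or without Ikaros sample 1 or 2 (adjusted p between 0.0645 and 0.237), miR-501-3p did not pass without control sample 2, control sample 4 or Ikaros sample 1 (0.0715, 0.0605 and 0.211), and miR-500-3p did not without control sample 2 (0.0678).

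The 3 largest positive differences were those of the miR-10 family. These miRNAs lie in the Hox clusters, miR-10a at chr11:96317165-96317274 and miR-10b at chr2:74726070-74726137 in an intron of Hoxd3 and Hoxd4, both on the plus strand. miR-10a-5p was the third most abundant miRNA of the 0 h samples. It had levels of 16.51, 16.09 and 15.64 in control samples 1, 2 and 4 and of 18.25, 18.39 and 17.76 in the Ikaros samples. The lowest Ikaros sample was 1.26 above the highest control sample, and the difference was 2.05 (SE 0.57, limma, adjusted p = 0.0166), or 4.15-fold. Its other arm, miR-10a-3p, is made from the same hairpin and was far less abundant. It rose from 5.13, 5.10 and 5.65 to 7.26, 7.49 and 7.53, a difference of 2.14 with a smaller error (SE 0.25, limma, adjusted p = 5.32e-07). miR-10b-5p had the largest difference of all 469 miRNAs, 2.73 (SE 0.68, limma, adjusted p = 0.00638), from 6.59, 6.00 and 6.04 to 9.07, 9.08 and 8.67. miR-10b-5p and miR-10a-5p differ by 1 base (A12U, miR-10b-5p first, counted from the 5′ end), and miR-10b-5p lay between 9.09 and 10.09 below miR-10a-5p in every sample. Whether reads of miR-10a-5p with an error at that base were counted as miR-10b-5p was not tested, and its value cannot be read apart from that of miR-10a-5p. The call of miR-10a-5p did not hold without control sample 2, control sample 4, Ikaros sample 1 or Ikaros sample 2 (adjusted p = 0.0556, 0.101, 0.0636 and 0.0766) nor with quantile normalization, which lowered the difference to 1.24 (adjusted p = 0.134), whereas the calls of miR-10a-3p and miR-10b-5p held in each of the 13 other settings. In the fit of only the 6 samples of 0 h, miR-10a-5p passed (limma, adjusted p = 1.48e-04). The other measured relatives, miR-99b, miR-100 and miR-125a, had 5 mature miRNAs, none of which passed. With the random replicate block, miR-100-5p passed (-0.75, adjusted p = 0.0354). The most abundant of these, miR-99b-5p, had a difference of -0.11 with an interval of -0.68 to 0.46. The 8 mature miRNAs of the family held between 4.16% and 6.80% of the linear total in control samples and between 15.8% and 23.1% in Ikaros samples, nearly all of it miR-10a-5p.

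The other 9 higher miRNAs came from 7 hairpins on 6 chromosomes. miR-126a-3p, from an exon of Egfl7 (chr2:26591357-26591429, plus strand) and known from endothelium and blood stem cells, had the smallest p-value of all 469. Its levels were 5.93, 5.89 and 6.13 in the control samples and 7.55, 7.57 and 7.55 in the Ikaros samples, a difference of 1.57 (SE 0.18, limma, adjusted p = 3.48e-07). miR-146a-5p, which represses the signalling proteins Traf6 and Irak1 (hairpin at chr11:43374397-43374461, minus strand), had 8.90, 8.82 and 8.97 against 10.21, 10.24 and 10.31. The values of the 3 samples of a line lay within 0.15 of each other, and the difference was 1.36 (SE 0.21, limma, adjusted p = 3.07e-05). miR-146b-5p has the same seed and a difference of 0.03 with an interval of -0.39 to 0.46. The pair from 1 hairpin in an intron of Lpp, miR-28a-3p and miR-28a-5p, differed by 1.33 and 1.02. miR-107-3p, in an intron of Pank1, had the smallest difference that passed, 0.56 (SE 0.11, limma, adjusted p = 4.40e-04), with samples of a line within 0.08 of each other. miR-103-3p differs from miR-107-3p by 1 base (C22G, miR-107-3p first), was more abundant, and had a difference of 0.22 with an interval of -0.16 to 0.61. The other 4 were near the bottom of the table in the control line. miR-128-2-5p, within Arpp21, had 0.57, 1.18 and 0.56 against 2.79, 2.13 and 2.25, while the abundant arm that both miR-128 hairpins make, miR-128-3p, had a difference of 0.13 (interval -0.36 to 0.62). miR-199b-5p differed by 1.61, and miR-3058-5p and miR-3058-3p, both within Nudt4, by 1.24 and 1.10, with control means of 1.52, 0.65 and 0.67.

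Lower in the Ikaros line were the miRNAs of the imprinted Dlk1-Dio3 region, which are made from the maternal chromosome in the embryo. Of 8 measured mature miRNAs of this region on the plus strand of chromosome 12, 7 were lower, and the median difference of the 8 was -1.43. miR-127-3p (hairpin chr12:109592846-109592915) had 4.15, 4.29 and 4.83 in control samples 1, 2 and 4 and 1.56, 1.53 and 2.36 in the Ikaros samples. The highest Ikaros sample was 1.80 below the lowest control sample, and the difference of -2.61 was the largest negative one of all miRNAs (SE 0.39, limma, adjusted p = 2.46e-05). miR-541-5p had 3.38, 3.58 and 2.94 against 0.71, 0.63 and 1.21, a difference of -2.45 (SE 0.47, limma, adjusted p = 4.13e-04). miR-411-5p had 3.08, 3.40 and 3.42 against 0.75, 0.99 and 1.71, a difference of -2.15 (SE 0.38, limma, adjusted p = 1.87e-04). In the Ikaros line both were thus close to the lowest values of the table, and the folds of 5.46 and 4.44 rest on those low values. miR-410-3p (-1.63), miR-434-3p (-1.23), miR-381-3p (-1.23) and miR-434-5p (-0.92) also passed. miR-409-3p did not, with a difference of -0.66 and an interval of -1.15 to -0.16 (limma, adjusted p = 0.104), but passed with the random replicate block (0.0459). The members lie in a pair of stretches, miR-127 and miR-434 at chr12:109592846-109594599 and the others from miR-411 to miR-410 at chr12:109710175-109743795, and passed in both. Without control sample 4, 4 of the 8 passed: miR-410-3p, miR-381-3p and miR-434-3p were lost (adjusted p = 0.0646, 0.142 and 0.203). That sample had the highest value of these 3, and also of miR-127-3p, miR-411-5p and miR-434-5p, which passed without it. miR-381-3p was also lost without control sample 2 (0.0514) and miR-434-3p without control sample 2, Ikaros sample 1 or Ikaros sample 2 (0.0715, 0.0719 and 0.151). With miRNAs of a mean level under 2 left out before the fit, 4 passed, miR-127-3p, miR-410-3p, miR-411-5p and miR-541-5p. The other members, miR-381-3p, miR-409-3p and both arms of miR-434, were left out by that filter and not tested.

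The miR-200 family, which keeps epithelial cells from taking on mesenchymal traits, was lower in one of its loci. miR-200b, miR-200a and miR-429 lie within Ttll10 on the minus strand (chr4:156053905-156055750), and miR-200c and miR-141 on chromosome 6. From the chromosome 4 locus, 3 of 5 mature miRNAs were lower and the differences of all 5 were below 0. miR-200b-3p had 4.95, 4.96 and 5.86 against 3.56, 2.37 and 3.87, a difference of -1.99 (SE 0.34, limma, adjusted p = 1.41e-04). miR-429-3p had 6.45, 6.37 and 6.94 against 5.26, 5.48 and 5.72, a difference of -1.10 (SE 0.23, limma, adjusted p = 0.00113). The Ikaros samples spread over 1.49 for miR-200b-3p and over 0.46 for miR-429-3p, so the smaller difference was the more even one. miR-200a-5p differed by -1.26, and its call was lost without Ikaros sample 1 or 2 (adjusted p = 0.0522 and 0.0841). miR-200a-3p (-0.98, adjusted p = 0.104) and miR-200b-5p (-0.77, adjusted p = 0.179) did not pass. In the fits with a replicate block for the culture batch, miR-200a-3p passed (adjusted p = 0.04999 with a fixed and 0.0376 with a random block). From the chromosome 6 locus, miR-200c-3p had a difference of 0.33 (interval -0.16 to 0.81), miR-141-5p of 0.34 (-0.23 to 0.92) and miR-141-3p of -0.23 (-1.07 to 0.61). miR-200c-3p has the seed of miR-200b-3p and miR-429-3p and had levels of 4.85, 4.62 and 4.31 against 4.87, 5.48 and 4.42, which overlap. The difference between the loci was not tested. The 8 miRNAs together were at or under 0.02% of the linear total in every sample.

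The miR-106a-363 cluster lies on the minus strand of the X chromosome (chrX:52741693-52742567) and is a relative of the miR-17-92 cluster on chromosome 14. Of the 10 mature miRNAs that come from this cluster alone, 6 were lower in the Ikaros line, the differences of all 10 were below 0, and their median was -0.67. The differences lay between -1.02 and -0.30, and their median was nearer to 0 than that of the other 3 groups. miR-20b-5p, the most abundant, had 11.92, 11.86 and 11.52 in control samples 1, 2 and 4 and 11.09, 11.37 and 10.89 in the Ikaros samples. The gap between the lowest control and the highest Ikaros sample was 0.15, with a difference of -0.65 (SE 0.19, limma, adjusted p = 0.0233). miR-363-3p had 11.27, 11.43 and 11.16 against 10.59, 10.58 and 10.69, a difference of -0.67 (SE 0.20, limma, adjusted p = 0.0233). miR-92a-2-5p (-1.02), miR-106a-3p (-0.92), miR-18b-3p (-0.91) and miR-363-5p (-0.74) also passed. Not past the threshold were miR-18b-5p (-0.68, adjusted p = 0.151), miR-19b-2-5p (-0.66), miR-20b-3p (-0.60) and miR-106a-5p (-0.30). In the fit of only the 6 samples of 0 h, 7 passed, miR-18b-5p among them (limma, adjusted p = 0.0381). With sample medians subtracted, 4 passed. When miRNAs of a mean level under 2 were left out before the fit, 5 passed, and miR-92a-2-5p was left out and not tested. The count of 6 in the fit of all 36 samples rested on every sample of 0 h. It was 2 without control sample 1, 1 without control sample 2, and 3 without Ikaros sample 1 or without Ikaros sample 4, and of the 6 miR-18b-3p passed in all of these. Calls were lost for miR-20b-5p without control sample 1 or 2 or Ikaros sample 1 or 4 (adjusted p between 0.078 and 0.15), for miR-363-3p without control sample 1 or 2 or Ikaros sample 1 or 2 (0.0645 to 0.115), for miR-363-5p without control sample 1 or 2 or Ikaros sample 4 (0.106 to 0.171), for miR-106a-3p without any sample but Ikaros sample 2 (0.0652 to 0.214) and for miR-92a-2-5p without control sample 2 (0.0564). Both this cluster and miR-17-92 make miR-19b-3p and miR-92a-3p, which cannot be assigned, and their differences of -0.40 (interval -2.99 to 2.19) and -0.14 (-0.70 to 0.42) did not pass. Of the 12 mature miRNAs of miR-17-92, these included, 0 passed by limma and 1 had an unadjusted p-value under 0.05, with a median difference of -0.16. miR-20a-5p, which differs from miR-20b-5p at 2 bases and was more abundant in every sample, had a difference of 0.04 with an interval of -0.44 to 0.52.

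**Figure D3:**
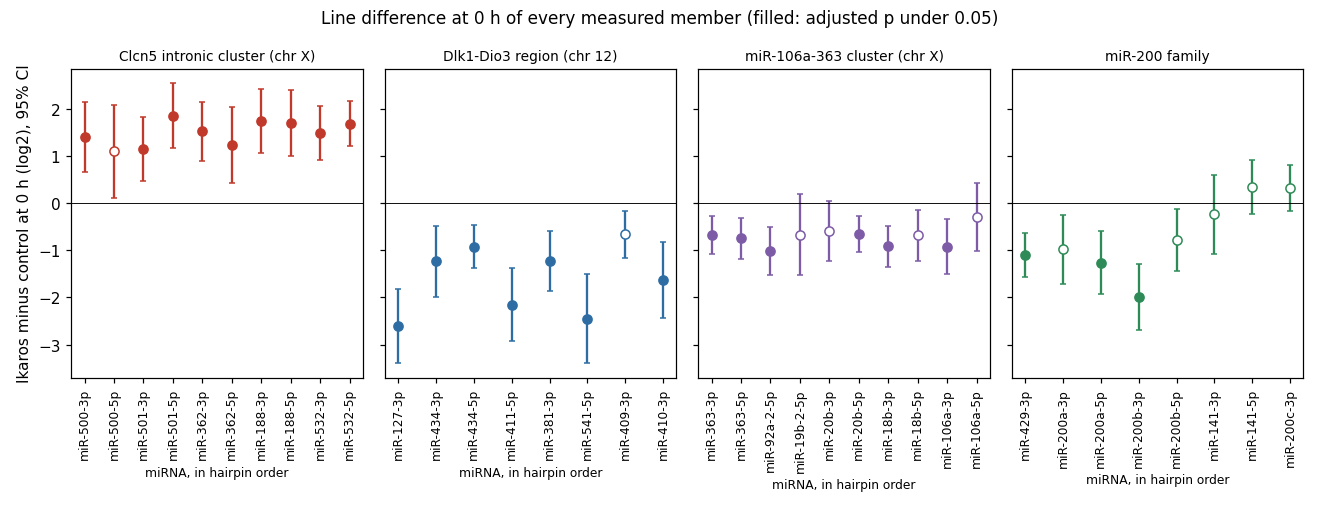
Line difference at 0 h (y axis, log2, Ikaros minus control) of every measured member of the 4 groups in the order of their hairpins, with 95% confidence intervals from limma, filled where the adjusted p-value was under 0.05. All 10 members of the Clcn5 cluster lie above 0, all 8 of the Dlk1-Dio3 region and all 10 of the miR-106a-363 cluster lie below 0, and in the miR-200 family the 5 of chromosome 4 lie below 0 while the 3 of chromosome 6 have intervals that include 0.

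The 3 other lower miRNAs were abundant. miR-21a-5p, which represses Pdcd4 and lies in an exon of Vmp1 (chr11:86584067-86584158, minus strand), was the seventh most abundant miRNA. It had 15.20, 15.16 and 15.34 in control samples 1, 2 and 4 and 14.39, 14.29 and 14.59 in the Ikaros samples, a difference of -0.81 (SE 0.14, limma, adjusted p = 1.24e-04). Every pair showed nearly the same difference, -0.81, -0.87 and -0.76. With quantile normalization, the difference was -0.46 and did not pass (adjusted p = 0.134). miR-21a-3p had a difference of -0.72 (interval -1.54 to 0.11). miR-221-3p, which represses Kit and Cdkn1b, had 10.05, 9.80 and 9.93 against 9.11, 9.18 and 8.76, a difference of -0.91 (SE 0.18, limma, adjusted p = 5.84e-04). Its cluster neighbour of the same seed, miR-222-3p, was at a mean of 3.87 in the control line and differed by -0.08 (interval -0.81 to 0.66), while miR-221-5p had a difference of -1.40 with an interval of -3.56 to 0.76. The third, let-7d-3p, differed by -0.90 (SE 0.17, limma, adjusted p = 4.40e-04), whereas the guide arm of the same hairpin, let-7d-5p, had a difference of -0.11 (interval -0.49 to 0.26).

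Of the 40 miRNAs, 25 belonged to the 4 groups. Measured were 10 members of the Clcn5 cluster, 8 of the Dlk1-Dio3 region, 8 of the miR-200 family and 10 of the miR-106a-363 cluster. The groups were described because they held calls, so the count of 25 follows in part from that choice. Among 34 runs of at least 2 neighbouring hairpins within 10 kb on 1 strand, 7 held a miRNA past the threshold, and 5 held at least 2: the Clcn5 cluster, the miR-106a-363 cluster, the miR-200b locus and both stretches of chromosome 12. On the X chromosome, 9 of 61 measured miRNAs were higher and 7 lower, while on the autosomes 12 of 357 were higher and 12 lower. The 9 were those of the Clcn5 cluster, and the 7 were 6 of the miR-106a-363 cluster and miR-221-3p. The counts for the X chromosome thus restate these clusters. Where both arms of a hairpin were measured, they tended to differ in the same direction. Of 129 such hairpins, 19 had an arm past the threshold and 9 had both, and in all 19 the arms had the same sign, against 93 of all 129. Among the 37 of the 40 miRNAs with a sequence (19 of the higher and 18 of the lower ones), few shared a seed. In this comparison the pairs miR-10a-5p and miR-10b-5p, miR-200b-3p and miR-429-3p, and miR-500-3p and miR-501-3p had a seed in common. In the larger seed groups a single miRNA passed, miR-20b-5p in 1 of 6 with the seed AAAGUGC of miR-17 and miR-363-3p in 1 of 5 with the seed AUUGCAC of miR-92, while the other 5 and 4 had differences between -0.30 and 0.44 and between -0.62 and 0.05.

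Of the 10 miRNAs with the highest mean at 0 h, 2 passed the threshold, miR-10a-5p and miR-21a-5p, and the intervals of 3 more lay below 0. miR-191-5p, the first of them, had a difference of 0.11 (interval -0.34 to 0.56). miR-181a-5p, which tunes T cell receptor signalling, had 18.23, 18.36 and 18.65 against 17.76, 17.53 and 18.30. The lines overlapped for it, and its difference of -0.55 (interval -0.94 to -0.16) did not pass (limma, adjusted p = 0.0786). The difference was -0.77 and passed without Ikaros sample 4 (adjusted p = 0.0102), and it passed with the culture batch as a fixed or random replicate block (adjusted p = 0.0162 and 0.0222). let-7f-5p (-0.35, interval -0.60 to -0.10) and miR-142-5p (-0.68, interval -1.28 to -0.07) did not pass either (adjusted p = 0.0786 and 0.221), and let-7f-5p did with the random block (0.0343), with which 4 of the 10 passed. In the fit of only the 6 samples of 0 h, miR-142-5p passed (limma, adjusted p = 0.0192). With quantile normalization, let-7f-5p had the other sign (0.11) and miR-142-5p was at -0.11 (limma, adjusted p = 0.875 and 0.933). miR-16-5p (0.14), miR-25-3p (0.05), miR-181b-5p (0.01) and miR-181a-1-3p (-0.08) had intervals within 0.42 of 0 on either side in the main fit. Under quantile normalization miR-16-5p had the other sign (-0.46) and miR-25-3p was at 0.32 (limma, adjusted p = 0.277 and 0.563). In that setting miR-181b-5p was at 0.15 and miR-181a-1-3p at -0.08. Within the 10, the count depended on single libraries and on the scaling: it was 1 without control sample 2, control sample 4, Ikaros sample 1 or Ikaros sample 2, and 0 with quantile normalization.

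Other families known from B cells and their cell cycle were counted by limma with adjusted p-values under 0.05, beside 8.53% of all miRNAs that passed and 16% with an unadjusted p-value under 0.05. None passed of 10 mature miRNAs of the miR-15/16 family (median difference 0.11), 6 of miR-106b-25 (0.07), 7 of miR-29 (-0.10), 8 of miR-181 (-0.07), 10 of the miR-23/27/24 clusters (-0.01) and 8 of miR-30 (-0.12). In the unadjusted test, 0, 0, 0, 1, 1 and 0 of them had a p-value under 0.05. With a replicate block, fixed or random, 1 of miR-181 passed, miR-181a-5p. The lymphocyte regulators miR-146a, miR-146b, miR-150 and miR-155 had 1 call in 7, which was miR-146a-5p. miR-155-5p had a difference of -0.13 (interval -0.49 to 0.24) and miR-150-5p of -0.14 (-0.81 to 0.54). In the let-7 family, 1 of 13 passed (2 with the random block), and the differences of 12 of 13 were below 0, with a median of -0.27. All 8 mature miRNAs of miR-449 and of miR-34, a target of p53, also had differences below 0, with a median of -0.38, and 0 passed while 2 had an unadjusted p-value under 0.05. Of these, miR-34c-5p passed with the random replicate block (-0.62, adjusted p = 0.0354). On the X chromosome, the cluster of miR-322 and miR-503 had differences above 0 in 11 of 12 with a median of 0.33, of which 0 passed and 4 had an unadjusted p-value under 0.05. With the replicate block, miR-450b-5p of that cluster passed (0.50, adjusted p = 0.0348 fixed and 0.0159 random), and with the random one miR-450a-5p as well (0.47, adjusted p = 0.0449). Of 35 measured miRNAs of the miR-466, miR-467 and miR-669 families, known from an intron of Sfmbt2, 0 passed in either test. Of these, 27 had a difference below 0, and the median was -0.17. They were grouped by name, and whether each lies in that intron was not checked. None of the runs of neighbouring hairpins held them. Over all 469 miRNAs, 251 differences were below 0.

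Markers of cell types were compared as a check of the label. Of the lymphoid list, 9 were measured and 0 passed the threshold (1, miR-181a-5p, with a replicate block). Together they held between 28.8% and 39.2% of the linear total in control samples and between 17.9% and 28.9% in Ikaros samples. Most of it was miR-181a-5p, miR-181a-1-3p and miR-181b-5p, with 25.5% to 35.4% in control and 15.8% to 26.7% in Ikaros samples. A share also falls when another miRNA takes more of the total. The family of miR-10, miR-99, miR-100 and miR-125 held 4.16% to 6.80% in control and 15.8% to 23.1% in Ikaros samples. How much of the lower lymphoid share this makes up was not tested. Not every member of the lymphoid list was abundant, and miR-155-3p had a mean level of 4.10. The myeloid miRNA miR-223-3p was near the bottom of the table in both lines, with means of 1.64 and 1.62. Of the mesenchymal list, miR-143-3p and miR-199a-5p were measured, at means under 2 in both lines, and neither passed. Among 5 mature miRNAs known from neurons, 1 passed, miR-128-2-5p. This list was not low as a whole, and miR-9-5p had a mean level of 13.13 over the samples of 0 h. The 5 held between 0.671% and 0.861% of the linear total in control samples and between 0.558% and 0.655% in Ikaros samples. The liver, erythroid and muscle miRNAs of the list are not among the 469. The endothelial and blood stem cell miRNA miR-126a-3p, higher in the Ikaros line, and the epithelial miR-200 family, lower in it, have been given above.

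The lines were set side by side again at the later times, for which other culture batches were used (1, 2 and 3), so that no sample is shared with 0 h. At 2 h the difference had the same sign as at 0 h in all 40 miRNAs. The share of all 469 with the same sign at both times was not counted, so this has no background to set it against. Of the 40, 31 passed the threshold again, 20 of the 21 that were higher and 11 of the 19 that were lower. At 2 h 53 of all 469 passed (11.3%), 34 higher and 19 lower. From 2 h to 18 h the control samples were mostly in another sequencing batch than the Ikaros samples, so that line and sequencing batch cannot be told apart in the values before the batch correction of the authors. For the difference at 2 h beyond that at 0 h, 0 of the 469 miRNAs passed (0%) by limma, 15 (3.2%) had an unadjusted p-value under 0.05, and 3 of the 40 were among those. At 6, 12, 18 and 24 h, 15.1%, 21.7%, 29.9% and 39.9% of all miRNAs passed, with either sign and each time counted alone. The later times share their culture batches, so they are not independent of each other. Of the 40, 20 passed with the same sign at all 6 times, which include 0 h, by which the 40 were chosen. Among these were all 9 miRNAs of the Clcn5 cluster, miR-10a-3p, miR-10b-5p, both arms of miR-28a, miR-107-3p and miR-126a-3p on the higher side, and miR-127-3p, miR-411-5p, miR-429-3p, miR-221-3p and miR-20b-5p on the lower side. The median of the Clcn5 cluster was 1.52 at 0 h, 2.15 at 2 h and 3.08 at 24 h, and that of the miR-106a-363 cluster was -0.67, -0.56 and -1.29. In the Dlk1-Dio3 region the medians were -1.43, -1.38 and -1.16, and in the miR-200 family -0.88, -0.46 and -0.79.

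Some differences of 0 h were smaller or had the other sign at 24 h. For miR-146a-5p the differences from 0 h to 24 h, in order of time, were 1.36, 1.16, 0.95, 0.48, -0.11 and 0.07. Its mean fell in the Ikaros line from 10.25 (SD 0.05, n = 3) to 8.91 (SD 0.45, n = 3) and was 8.90 (SD 0.07, n = 3) and 8.84 (SD 0.26, n = 3) in the control line. miR-21a-5p went from -0.81 at 0 h to 0.40 at 24 h, where it passed with the other sign (limma, adjusted p = 0.0216). Of the 40, 6 passed with a positive and 3 with a negative change of the difference from 0 h to 24 h, where 27 of all 469 did with a positive (5.76%) and 31 with a negative one (6.61%). Since these miRNAs were chosen by their values at 0 h and 0 h came from other culture batches, a change since 0 h carries both.

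**Figure D4:**
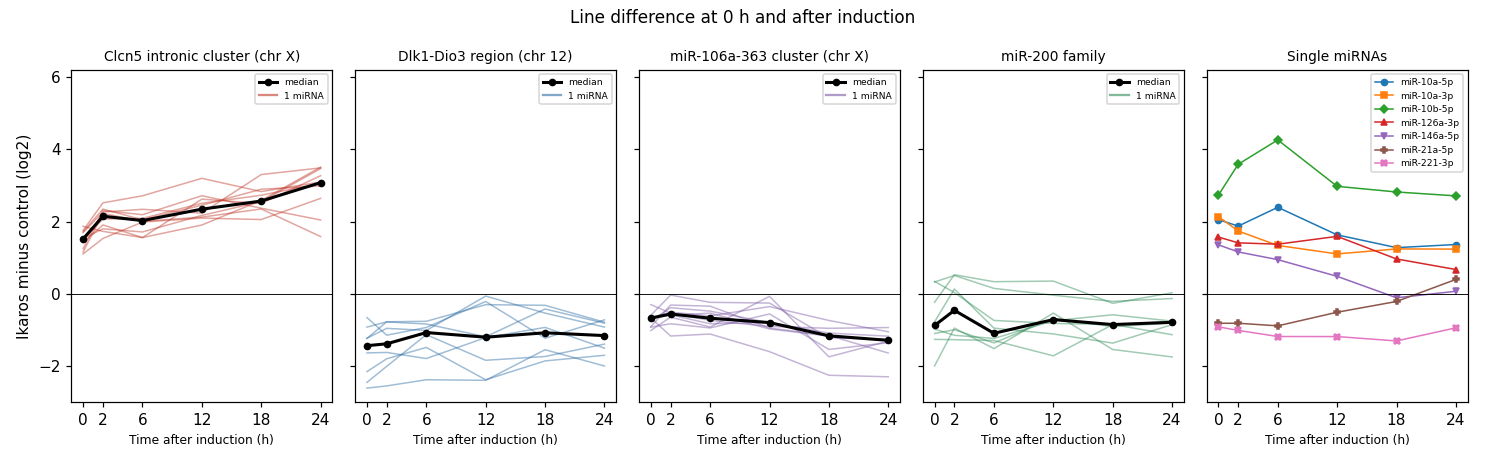
Line difference (y axis, log2, Ikaros minus control, mean of 3 samples a line) at 0, 2, 6, 12, 18 and 24 h after induction (x axis) for the members of the 4 groups (thin lines) with their median (black), and for 7 single miRNAs on the right. The Clcn5 cluster rises from a median of 1.52 to 3.08, the Dlk1-Dio3 region and the miR-200 family have medians below 0 at all times, and miR-146a-5p and miR-21a-5p approach or cross 0.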

How the data were processed

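Small RNA from B3 cells was sequenced by the authors (TruSeq Small RNA kit). Reads were aligned with Novoalign to the mouse entries of miRBase and counted with multiBamCov (bedtools). MiRNAs of low CPM were removed, and the rest underwent GC correction (cqn), TMM normalisation and batch correction (ComBat), after which technical replicates were averaged. Versions are not given in the sources used here, and the labels name mm10. What the authors deposited are log2 values after these steps and no counts. The methods of the study give only a range of reads per sample, so the reads behind each value are not known from the table, and no counting interval or floor was computed. The mean of a line at 0 h rests on 3 samples. The spread behind the errors, intervals and p-values was taken from all 36 samples, those of the later times included. How much of a line difference the batch correction added or removed was not tested. According to the drawn design all 0 h samples were in one sequencing batch, some of them also in the other.

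Samples were grouped by line and time from their labels. The log2 values of 469 miRNAs in 36 samples were fitted with limma 3.58.1 in R 4.3.3 (lmFit, eBayes with trend, 1 mean for each of 12 groups), the contrast was Ikaros minus control at 0 h, and p-values were adjusted over the 469 miRNAs by the Benjamini-Hochberg procedure with a threshold of 0.05. The same fit gave the later times and the changes since 0 h. Tests are two-sided. The script was tested on simulated data. Same-numbered samples share a culture batch per the labels, and their deviations from the group means correlated with r = 0.17, 0.17 and 0.57 for numbers 1, 2 and 4.

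Sequences and hairpins came from RefSeq (GRCm38.p6), 391 of the 469 names matched a mature sequence and 418 a hairpin, 394 of them exactly 1. Host genes came from GENCODE vM21. The coordinates follow from these names and not from the alignment. Shares of the linear total were taken from 2 raised to the deposited values. Named were the 10 largest differences each way past the threshold, all members of clusters with at least 2 calls, all other calls, the other arms, the 10 most abundant miRNAs and lists by counts. The members and the lists were chosen with earlier results of these data known, so a list is described by counts and medians with no test of its own. Alternatives were only the groups compared, a replicate block, sample medians subtracted, quantile normalization, no trend, a mean level of at least 2, a minimum difference of 1, neighbours within 50 kb and leaving out each 0 h sample. Figures were drawn with matplotlib 3.10.9.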

Additional observations from a re-analysis of the deposited data

Results flagged for a closer look

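For 10 of the named miRNAs the line difference at 24 h was not that at 0 h, by limma's test of the change itself with adjusted p-values under 0.05. The change was positive in 5 miRNAs of the Clcn5 cluster, which were already higher at 0 h: miR-362-3p changed by 1.93, miR-532-5p by 1.79 and miR-532-3p by 1.55, miR-501-5p by 1.64 and miR-500-3p by 1.85. It was negative in 3 that were higher at 0 h, with -1.62 for miR-128-2-5p, -1.29 for miR-146a-5p and -0.90 for miR-126a-3p. miR-21a-5p, lower at 0 h, changed by 1.21. miR-141-5p, which did not pass at 0 h, changed by -1.47. Culture batch and time cannot be told apart in these changes. Single samples were not examined for gaps, since no group has more than 3.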

How the results depend on the processing

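Of the 40 miRNAs, 26 passed in all of the 13 other settings in which they were tested and 14 were lost in at least 1, and 0 changed sign. The filter on low levels leaves miRNAs out of the test, and 33 of the 40 passed with it. Lost by a setting that kept all samples were miR-106a-3p (fixed block and quantile normalization), miR-10a-5p and miR-21a-5p (quantile normalization), miR-362-5p (no trend) and miR-363-3p, miR-363-5p and miR-434-3p (medians subtracted). The count of 40 became 50 with only the 6 samples of 0 h, 43 with medians subtracted, 41 with quantile normalization, 39 without the trend, 35 with a mean level of at least 2 and between 29 and 43 without one sample. Since same-numbered samples share a culture batch, the pairing was also fitted: with the batch as a fixed replicate block 44 passed, 39 of them shared, and as a random replicate block 52, with all 40 shared. The calls that the blocks changed among the miRNAs and lists of the report are given there, beside miR-106a-3p, which was lost with the fixed block. Among the 10 most abundant, 4 passed with the random block, 0 with quantile normalization and between 1 and 3 without one sample. Without one sample the Dlk1-Dio3 count ranged from 4 to 7, that of miR-106a-363 from 1 to 5 and that of all lower miRNAs from 12 to 17. The Dlk1-Dio3 count was 4 with the filter on low levels, which left its other members out of the test. With 2 samples left in a line, the spread was taken from all groups. The table holds no counts, so which low miRNAs the depth limits cannot be stated.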
